A study of Mus musculus with 12 samples.

Results

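Endothelial cells and blood stem cells share a set of genes, most of them for proteins of the cell surface. The genes described here are 10 of them: Robo4, Fgd5, Esam, Procr, Tek, Tie1, Eng, Emcn, Cdh5 and Jam3. They were read in hematopoietic stem cells (HSCs), the bone marrow cells that maintain all blood lineages, on 12 Illumina mouse bead arrays. The members were all probes that the platform annotation ties to exactly 1 of these symbols, which gave 16 probes for 10 of the 17711 genes with such a probe. The genes were selected on their measured levels in winner and loser cells of these arrays, so their levels and differences are a description and are not tested. Of the 10, 6 had a probe above background on both arrays of at least 1 group (Robo4, Fgd5, Esam, Tek, Emcn and Jam3), and 4 did not (Procr, Tie1, Eng and Cdh5).

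The samples came from a study of competition between cells that differ in p53, the tumour suppressor that halts or kills damaged cells. HSCs were sorted from mosaic, fully recombined or wild-type mice by the absence of lineage markers and CD48 and the presence of c-kit, Sca-1 and CD150. In mosaic mice some cells carried the R26-mp53 allele, expressed mutant p53 together with GFP, and lived beside GFP-negative wild-type (WT) cells. The 6 groups had 2 arrays each, called biological replicates 1 and 2. The group "winner" was mp53 cells of irradiated mosaic mice, and "loser" was the WT cells of irradiated mosaic mice. The non-competing irradiated groups were WT cells of WT mice and mp53 cells of fully recombined R26-mp53 mice. The unirradiated groups were WT and mp53 cells of mosaic mice. Irradiated mice received 2.5 Gy, and cells were taken 3 weeks later. Each array held amplified RNA of 200 sorted cells. The labels do not say whether replicates were separate mice or pools, whether winner and loser cells came from the same mice, or what induced recombination. Mutant and WT cells of a mosaic also differ in GFP.

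As background, blood and endothelium arise from a common lineage in the embryo, and adult HSCs keep part of the endothelial surface. Robo4 and the junction molecule Esam mark HSCs and take part in their lodging in the marrow, Procr and endomucin are used to isolate HSCs, and Fgd5 reporters label HSCs in mice. Tek, the receptor of angiopoietins, is known for holding HSCs in quiescence.

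Robo4, Fgd5, Esam and Emcn made up a block that lay lowest in the winner group. After background correction and quantile normalization, each of these 4 genes read below all 10 other arrays on both winner arrays. The winner minus loser difference in log2 level was -3.49 (SE 0.72, n = 2 arrays a group) for Robo4, -2.91 (SE 0.60) for Fgd5, -2.84 (SE 0.72) for Esam and -2.66 (SE 0.70) for Emcn. On that scale this is 11.2-fold less intensity for Robo4, 7.52-fold for Fgd5 and 6.31-fold for Emcn. As deposited, winner and loser means were closer, at 121 and 275 for Robo4, 60.8 and 117 for Fgd5, and 114 and 161 for Emcn. Deposited Emcn in winner replicate 2 (136) lay above loser replicate 1 (129). Deposited Esam in winner replicate 1 (79.8) lay above unirradiated mp53 replicate 1 (75.5). Esam was above background on 1 of the 2 winner arrays, so every difference of Esam against the winner group is that of the readings and not a measured fold. Jam3 and Tek were not in this order, and the remaining 4 genes were at background on nearly all arrays. With 2 arrays a group, limma's moderated test called 0 of 13512 probes at an adjusted p under 0.05 in each of 11 comparisons, a background of 0%. The count at an unadjusted p under 0.05 was 1862 for winner against loser, and over the 11 comparisons it ran from 132 (non-competing mp53 against WT) to 2106 (the irradiation by genotype term). Without unirradiated mp53 replicate 2 limma did call probes for irradiation in mosaic mp53 and for the irradiation by genotype term. That group then has 1 array, which is assumed to vary like the other groups, so nothing about the members is read from these calls.

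Promoters of Robo4, Fgd5 and Emcn are shown because these 3 genes varied together across the arrays and have an entry in the RefSeq promoter table, which held 7 of the 10 members. Each sequence runs 5′ to 3′ on the gene's strand, from 250 bases before to 50 bases after the start, in GRCm38.p6. Capitals mark GGAA or its reverse complement TTCC, the core letters bound by ETS factors, a family active in both endothelium and HSCs. The Robo4 window is chr9:37401722-37402021 on the plus strand, that of Fgd5 is chr6:91978715-91979014 on the plus strand, and that of Emcn is chr3:137340828-137341127 on the plus strand.
Robo4: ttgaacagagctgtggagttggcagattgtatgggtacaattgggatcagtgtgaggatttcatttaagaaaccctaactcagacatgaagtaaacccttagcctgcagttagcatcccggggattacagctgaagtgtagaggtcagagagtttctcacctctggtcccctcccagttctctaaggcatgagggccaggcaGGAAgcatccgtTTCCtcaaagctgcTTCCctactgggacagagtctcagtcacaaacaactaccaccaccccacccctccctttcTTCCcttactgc
Fgd5: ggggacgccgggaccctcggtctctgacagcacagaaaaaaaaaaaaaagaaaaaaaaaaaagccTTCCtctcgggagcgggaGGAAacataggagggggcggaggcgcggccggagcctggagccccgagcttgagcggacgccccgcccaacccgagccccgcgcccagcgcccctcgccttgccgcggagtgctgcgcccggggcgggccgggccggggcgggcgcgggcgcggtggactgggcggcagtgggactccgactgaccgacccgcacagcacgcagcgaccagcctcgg
Emcn: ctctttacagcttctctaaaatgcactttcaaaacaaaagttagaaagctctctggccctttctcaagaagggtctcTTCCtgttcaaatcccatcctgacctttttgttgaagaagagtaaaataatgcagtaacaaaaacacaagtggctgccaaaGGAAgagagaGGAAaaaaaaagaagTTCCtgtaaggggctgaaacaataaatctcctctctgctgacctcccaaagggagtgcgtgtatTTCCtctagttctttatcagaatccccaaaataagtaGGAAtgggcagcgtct
On both strands, GGAA matched 4 times in Robo4, 2 times in Fgd5 and 6 times in Emcn, where the median over 32851 promoters of this length was 3. At least 1 match was present in 96.0% of all these promoters. As many matches as in Emcn or more were present in 15.7%, so the letters are common. The GATA letters GATAA matched 1 time in Emcn and 0 times in Robo4 and Fgd5, against 25.4% of all promoters with a match. The E-box CANNTG matched 2 times in Robo4, 0 times in Fgd5 and 1 time in Emcn, against 72.3% of all promoters. The RUNX letters TGTGGT matched 0 times in these windows and in 16.8% of all promoters. Of the motifs searched, the ETS core was the one with a match in all 3 windows.

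**Figure D1:**
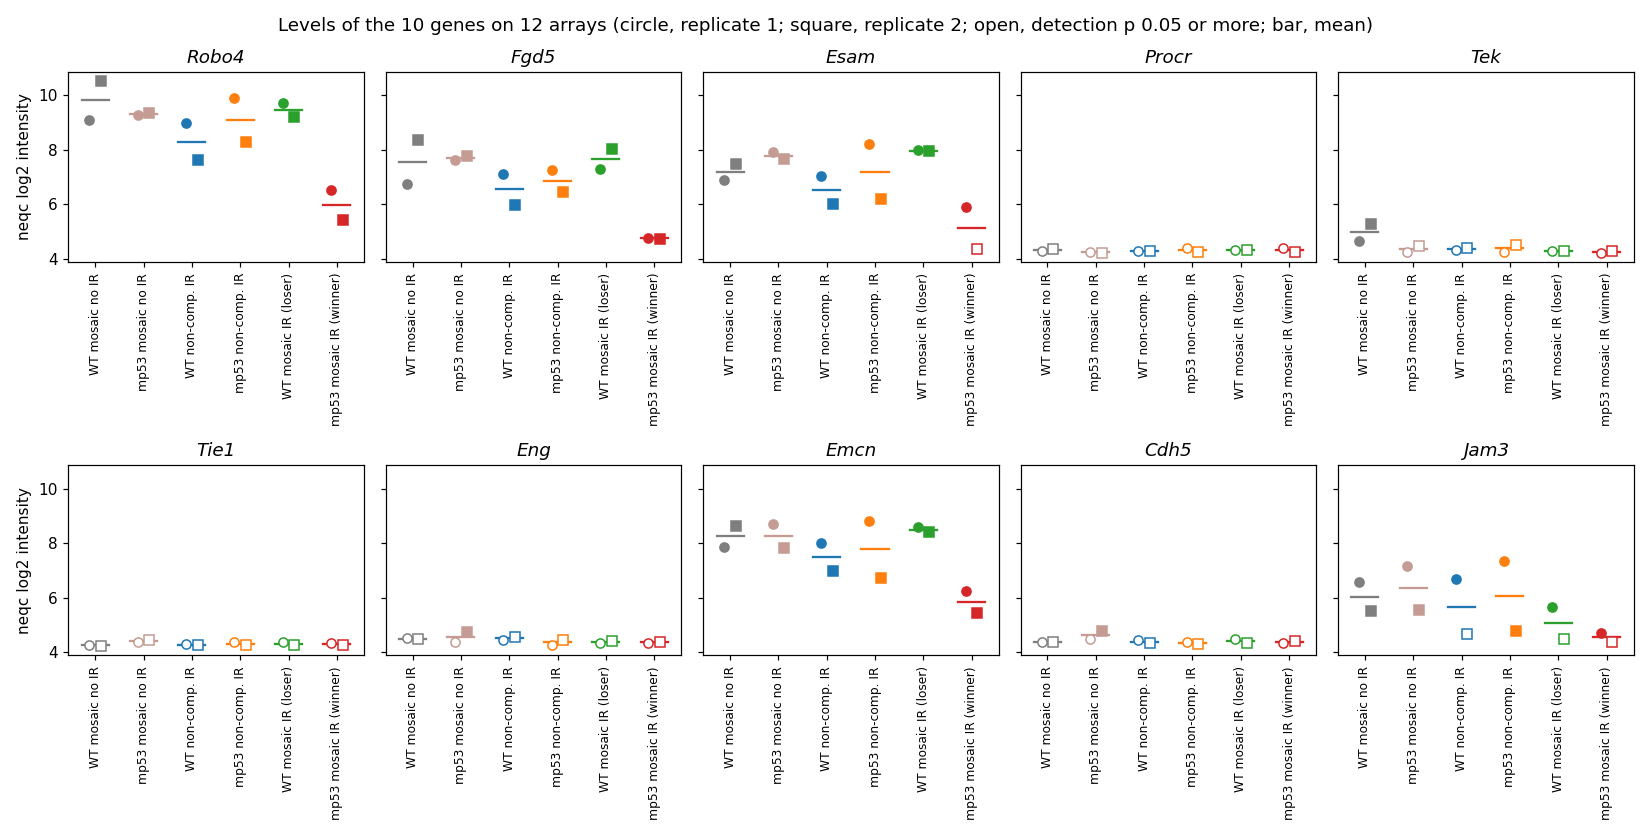
Level of each of the 10 genes on each of the 12 arrays, as neqc-normalized log2 intensity of the gene's brightest kept probe (of Procr, Tie1, Eng and Cdh5, which have none, the brightest probe). Columns are the 6 groups, circles replicate 1, squares replicate 2, bars group means, and open symbols have a detection p of 0.05 or more. Robo4, Fgd5, Esam and Emcn are lowest on both winner arrays, and Procr and Tie1 have open symbols only.

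Levels are given on the neqc scale, log2 of the intensity after background correction and quantile normalization. On this scale a probe that was not detected sat between about 4.2 and 5 units. A detection p under 0.05 counts as detected. Levels of different probes are not compared, since each probe has its own brightness.

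Robo4 encodes a roundabout receptor of endothelium that binds Unc5b and guards vessel integrity. Its brightest probe, ILMN_1258560, was detected on all 12 arrays. The winner arrays read 6.53 and 5.44, replicate 1 first here and below. The loser arrays read 9.72 and 9.22, and the non-competing mp53 arrays read 9.89 and 8.28. The 6 other levels ran from 7.62 in non-competing WT replicate 2 to 10.55 in unirradiated WT replicate 2, so the nearest array to the winner group was 1.09 units above it. The order of group means from the top was unirradiated WT (9.83 ± 1.01, SD, n = 2), loser (9.47 ± 0.36), unirradiated mp53 (9.32 ± 0.07), non-competing mp53 (9.08 ± 1.14), non-competing WT (8.30 ± 0.97) and winner (5.98 ± 0.77). Neighbours among the first 5 groups overlapped, and the last step, from non-competing WT to winner, was free of overlap.

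As deposited, before any scaling, the contrast in Robo4 was smaller. The winner arrays read 107 and 135 intensity units and the loser arrays 229 and 320. The dim unirradiated mp53 replicate 1 array read 126, which lies between the winner arrays. The unirradiated WT arrays read 447 and 2075.

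Fgd5 is not a surface protein: it encodes an exchange factor that loads GTP onto Cdc42 and acts in angiogenic signalling. Its probe ILMN_1251656 was detected on all 12 arrays. The winner arrays read 4.78 and 4.71, with detection p-values of 0.0175 and 0.025, and were the nearest of all to background. The loser arrays read 7.28 and 8.03, the non-competing mp53 arrays 7.27 and 6.44, and the unirradiated mp53 arrays 7.62 and 7.76. The unirradiated WT arrays read 6.73 and 8.34 and the non-competing WT arrays 7.12 and 5.97. The gap from the higher winner array to the lowest other array was 1.19 units, the widest gap of the 4 genes, and the winner arrays differed from each other by less than the arrays of any other group.

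Esam encodes an immunoglobulin-family adhesion molecule of endothelial tight junctions. The winner arrays read 5.91 and 4.35, and the second of these was not detected (detection p 0.415), so that array gives only an upper bound. The loser arrays read 7.99 and 7.95 and the unirradiated mp53 arrays 7.91 and 7.66. The non-competing mp53 arrays were far apart, at 8.21 and 6.18, and so were the non-competing WT arrays, at 7.02 and 6.01. The unirradiated WT arrays read 6.88 and 7.47. The gap between the groups was small: winner replicate 1 was 0.11 units under non-competing WT replicate 2.

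Emcn encodes endomucin, a sialomucin of capillary and venous endothelium that limits leukocyte adhesion. The winner arrays read 6.24 and 5.44, and the loser arrays 8.59 and 8.40. The non-competing mp53 arrays read 8.81 and 6.73, the unirradiated mp53 arrays 8.72 and 7.81, the unirradiated WT arrays 7.86 and 8.64, and the non-competing WT arrays 8.0 and 6.98. Its gap was 0.49 units, against non-competing mp53 replicate 2.

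Over all kept probes, 3.68% had both winner arrays below all 10 other arrays, and 4 of the 6 measured members did. The rule used these values, so nothing is read from the share. Among these, Esam lay just inside this order with its gap of 0.11. Tek and Jam3 lay outside it by -0.02 and -0.23, but these gaps lie between readings of which at least 1 was not detected, so they give no order.

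Jam3, a junctional adhesion molecule of endothelium known to hold HSCs in the marrow, followed the deposited table more than the group. The winner arrays read 4.70 and 4.38, the loser arrays 5.67 and 4.47, the non-competing mp53 arrays 7.35 and 4.77, and the unirradiated mp53 arrays 7.16 and 5.54. The unirradiated WT arrays read 6.57 and 5.50 and the non-competing WT arrays 6.69 and 4.66. Replicate 1 was the higher array in 6 of 6 groups, by a median of 1.41 units, and 15.5% of all kept probes had replicate 1 higher in all 6. Each replicate number has a deposited table of its own, so replicate and table cannot be told apart. Both winner arrays read below both arrays of the other mp53 groups, and overlapped the loser arrays. Winner replicate 2, loser replicate 2 and non-competing WT replicate 2 were not detected, so each Jam3 difference that uses them is one of readings and rests on 1 detected array of that group.

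Tek encodes the Tie2 receptor. It was detected on 2 arrays only, both of unirradiated WT cells, which read 4.66 and 5.28. The other 10 arrays lay between 4.2 and 4.51 and were not detected, so the winner and loser groups have no measured order for Tek. On the mean of 2 arrays, unirradiated WT cells stood at least 1.05-fold above unirradiated mp53, 1.07-fold above loser and 1.18-fold above non-competing WT cells. These bounds come through replicate 2 alone. In replicate 1 the unirradiated WT reading of 4.66 lay below the lowest detected reading of each of these groups. Those were 5.09 for unirradiated mp53, 4.93 for loser and 4.67 for non-competing WT cells. Tek was kept through this group alone, so its higher level there follows from the filter. In each such bound the dim group stands at the higher of its own reading and the lowest reading of any probe detected on its array.

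Procr, which encodes the endothelial protein C receptor, and Tie1, the partner receptor of Tie2, had no array above background. Procr read 4.2 to 4.41 and Tie1 4.23 to 4.45. Eng, the co-receptor of TGF-beta and BMP signalling, and Cdh5, the VE-cadherin of endothelial adherens junctions, were detected on 1 array each, in both cases unirradiated mp53 replicate 2, with detection p-values of 0.0493 and 0.0424. These readings give no level of the 4 genes in any group. HSCs are known to carry Procr and endoglin, and whether these probes could read their transcripts was not tested.

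The further probes of the genes were mostly near background. Of 16 member probes, 7 were kept, and 6 were detected on 0 or 1 array. The second Robo4 probe, ILMN_2438741, was detected on 6 arrays, read from 4.55 to 5.40 and had a correlation of 0.37 with the first over 12 arrays. Its winner minus loser difference was -0.20 (SE 0.32). Averaging both kept Robo4 probes gave -1.84 for winner against loser and -1.54 for winner against non-competing mp53. The second Fgd5 probe was detected on 3 arrays, all of replicate 2 and none of them a winner array, and correlated with the first at 0.62. The second probes of Emcn and Jam3 were each detected on 2 arrays, of which 1 was winner replicate 2, and their correlations with the first probes were -0.23 and -0.42. The measured block thus rests on 1 probe for each gene, and the transcripts that each probe reads are not given in the files.

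**Figure D2:**
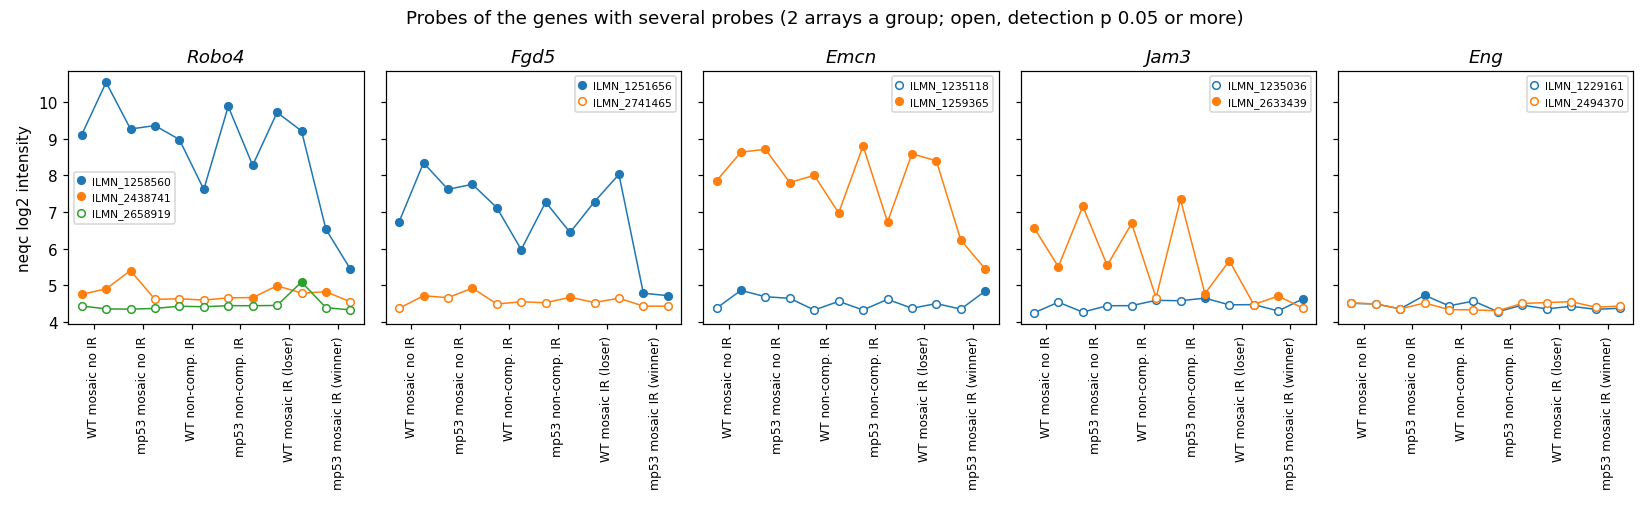
All probes of the 5 genes with several probes, as neqc log2 intensity on the 12 arrays in group order, replicate 1 before replicate 2 in each group. Filled symbols are detected (p under 0.05), open symbols are not. A single probe of Robo4, Fgd5, Emcn and Jam3 carries the signal, and the other probes stay between 4.2 and 5.4.

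Winner against loser compares mutant with WT cells of irradiated mosaics, where they competed. The members' median difference, over the 6 measured, was -2.75, and it was -2.22 in replicate 1 and -3.14 in replicate 2 alone. The median over all kept probes was -0.04. In Robo4, Fgd5, Esam and Emcn the winner arrays lay wholly below the loser arrays, as did 28.4% of all kept probes. Tek was undetected in both groups and has no order. Within replicates the differences were -3.20 and -3.78 for Robo4, -2.51 and -3.31 for Fgd5, -2.09 and -3.60 for Esam, and -2.36 and -2.96 for Emcn. Jam3 readings differed by -0.53 (SE 1.00), with 1 detected array in each group.

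Winner against non-competing mp53 compares cells of the same mutant genotype with and without WT competitors, all irradiated. The differences were -3.10 (SE 0.72) for Robo4, -2.11 (SE 0.60) for Fgd5, -2.07 (SE 0.72) for Esam and -1.93 (SE 0.70) for Emcn, and both replicates were negative for each. Jam3 readings differed by -1.52 (SE 1.00), and Esam and Jam3 were each detected on 1 of the 2 winner arrays. The members' median was -2.0, and 5 of 6 had readings without overlap, against 16.3% of all kept probes. This median was -2.84 without non-competing mp53 replicate 2 and -0.99 without replicate 1. The arrays of that group lay 1.61 units apart for Robo4 and 2.58 for Jam3. This comparison shares its winner arrays with the previous one.

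Irradiation in mosaic mp53 cells, the winner group against unirradiated mp53, gave differences of -3.33 (SE 0.72) for Robo4, -2.94 (SE 0.60) for Fgd5, -2.66 (SE 0.72) for Esam, -2.42 (SE 0.70) for Emcn and -1.81 (SE 1.00) for Jam3. The readings of these 5 did not overlap, against 21.7% of all kept probes, and the median of 6 was -2.54. With arrays scaled to a common median it was -1.13. In mosaic WT cells the same exposure, loser against unirradiated WT, gave -0.36 (SE 0.72) for Robo4, 0.12 (SE 0.60) for Fgd5, 0.80 (SE 0.72) for Esam and 0.25 (SE 0.70) for Emcn. Replicates disagreed in sign for Robo4, Fgd5 and Emcn. Scaling to a common median turned the sign for Fgd5 (-1.27), Esam (-0.66) and Emcn (-1.24), and gave -1.83 for Robo4, where the median of all kept probes was -0.73. Esam was higher in the loser group without overlap, against 36.6% of all kept probes in either direction, and Tek is left out of this count.

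**Figure D3:**
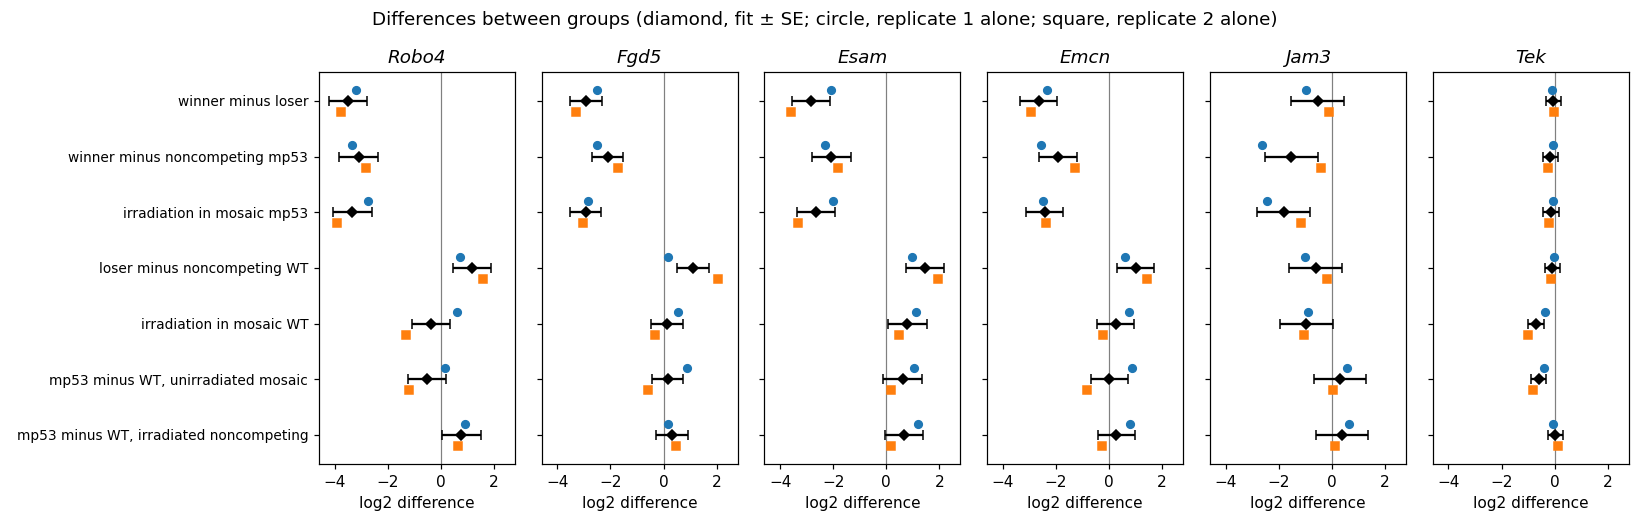
Differences between groups for the 6 measured genes, in log2 units, for 7 comparisons. Diamonds with bars are the limma estimate ± SE, circles replicate 1 alone and squares replicate 2 alone, and the vertical line marks 0. Estimates for Robo4, Fgd5, Esam and Emcn lie between -3.49 and -1.93 in the top 3 rows, which share the winner arrays, and are positive in the fourth.

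The loser cells lay above irradiated WT cells without competitors. The differences were 1.17 (SE 0.72) for Robo4, 1.11 (SE 0.60) for Fgd5, 1.45 (SE 0.72) for Esam and 1.01 (SE 0.70) for Emcn, each positive in both replicates, although Fgd5 in replicate 1 was only 0.16. These 4 did not overlap, against 20.3% of all kept probes in this direction. Jam3 was -0.60 (SE 1.00). The median of 6 was 1.06, and with arrays scaled to a common median it was 0.18, where the median of all kept probes was -0.29.

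Genotypes were also compared outside irradiated mosaics. Irradiated non-competing mp53 cells exceeded their WT counterparts by 0.78 (SE 0.72) for Robo4, 0.31 (SE 0.60) for Fgd5, 0.68 (SE 0.72) for Esam and 0.28 (SE 0.70) for Emcn, and 0 of 6 members were without overlap, against 20.0% of all kept probes. Unirradiated mosaic mp53 against WT cells gave -0.51 (SE 0.72), 0.15 (SE 0.60), 0.61 (SE 0.72) and 0.02 (SE 0.70) for the same genes in that order. Esam was higher in mp53 cells there without overlap, against 28.5% of all kept probes, and Tek is again left out. With arrays scaled to a common median these differences were -1.92 for Robo4, -1.19 for Fgd5, -0.77 for Esam and -1.46 for Emcn, where the median of all kept probes was -0.66. That of Robo4 and that of Emcn then exceeded in size their winner minus loser differences, -1.60 and -0.84. Under this scaling the median of all kept probes was negative here but positive for winner minus loser. These sizes thus have no common baseline and give no order of the 2 comparisons. The SE of these values allows differences of more than 1 unit in either direction: the 95% interval for Robo4 in the irradiated pair was -0.87 to 2.43.

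The non-competing irradiated groups were set against unirradiated mosaic cells of the same genotype, a contrast in which irradiation and mosaicism cannot be told apart. For mp53, Robo4 differed by -0.23, Fgd5 by -0.83, Esam by -0.59 and Emcn by -0.49, with the same SE as above. Fgd5 alone had no overlap, 1 of 6 against 23.9% of all kept probes. For WT, Robo4 differed by -1.53, Fgd5 by -0.99, Esam by -0.66 and Emcn by -0.76, and Robo4 had no overlap, against 30.2%, with Tek left out. With arrays scaled to a common median the mp53 differences turned positive for these 4 genes, at 1.12, 0.32, 0.56 and 0.80. This scaling moves all probes of an array together, so the turn is not read as particular to these genes. In replicate 2 the 4 genes were lower in both contrasts, with Robo4 at -2.93 in WT cells. Replicate 1 did not repeat this. There the WT contrast was -0.13 for Robo4, 0.39 for Fgd5, 0.15 for Esam and 0.15 for Emcn. The mp53 contrast in replicate 1 was 0.62, -0.35, 0.30 and 0.09 for the same genes in that order.

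The difference of differences was described with interaction terms. The genotype difference with competition, winner minus loser, less that without, non-competing mp53 minus WT, was -4.27 (SE 1.02) for Robo4, -3.22 (SE 0.85) for Fgd5, -3.52 (SE 1.02) for Esam and -2.94 (SE 1.00) for Emcn. The effect of irradiation in mosaic mp53 minus that in mosaic WT cells was -2.98 (SE 1.02) for Robo4, -3.06 (SE 0.85) for Fgd5, -3.46 (SE 1.02) for Esam and -2.67 (SE 1.00) for Emcn. With arrays scaled to a common median, the median of all kept probes in this term was 1.80, and the members' median turned from -2.82 to 0.42. Set against that shift, the members' median was -1.38. For winner against loser the same scaling put the median of all kept probes at 1.07 and that of the members at -1.19, which is -2.26 relative to it.

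The 4 genes varied together across all arrays. Their 6 pairwise correlations were 0.88 to 0.96 over 12 arrays, and 0.76 to 0.92 over the 10 arrays without the winner group, as a description of arrays that share tables and groups. Jam3 correlated with them at 0.45 to 0.67, and at 0.12 to 0.56 without the winner arrays. Tek gave 0.10 to 0.45. The mean of the 4 genes was lowest on winner replicate 2 (4.99) and winner replicate 1 (5.86), followed by non-competing WT replicate 2 (6.64) and non-competing mp53 replicate 2 (6.91), and was highest on unirradiated WT replicate 2 (8.75).

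Among 8368 other genes, those most like the members' mean centred profile over 12 arrays were Muc13 (r 0.98), Ctnnal1 (r 0.98), Ppp1r9a (r 0.98), Meis1 (r 0.98) and Vwf (r 0.98). Vwf encodes von Willebrand factor, stored in endothelium, platelets and a fraction of HSCs, and Meis1 encodes a homeobox factor needed by HSCs. Their winner minus loser differences were -2.57 for Vwf and -3.14 for Meis1. The genes least like it were Ccl6 (r -0.98), Ap1s2 (r -0.97) and Aoah (r -0.96), of which Ccl6 is a chemokine of myeloid cells. For Fgd5 alone the nearest were Maged1, Adgrl4 and Uba7 (r 0.97 to 0.98), for Robo4 Ppp1r9a, Wfdc2 and F2rl3 (r 0.97), and for Esam Vwf, Muc13 and F2rl3 (r 0.95 to 0.98). Adgrl4 encodes an adhesion receptor of endothelium and F2rl3 the thrombin receptor PAR4. Without the winner arrays the correlations of these genes with their targets were 0.88 to 0.96 in size.

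Partners of the members were followed in 7 lists, none of which holds a member, and in which limma called 0 genes in every comparison. Of ligands and receptors around Tek, 10 of 16 genes were kept, and 7 of 10 were lower and 3 higher in winner than loser cells (median -0.20, against -0.04 for all kept probes). Nrp1, a co-receptor for VEGF, differed by 2.39 (SE 0.72) and Dok2, an adaptor that binds Tek, by -1.30 (SE 0.43). Flt1, a VEGF receptor, differed by 0.93 (SE 0.38). Angpt2 was detected on 0 arrays.

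Of the Slit, Robo and Unc5 guidance genes around Robo4, 7 of 16 were kept, 4 lower and 3 higher (median -0.13). Slit2, a ligand of Robo receptors, differed by -1.45 (SE 1.21) and Unc5b, the partner of Robo4, by -0.86 (SE 0.65). Cdc42, which Fgd5 activates, was in this list and differed by 0.78 (SE 0.28). Robo2 and Slit1 were detected on 0 arrays.

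Around Eng, 10 of 16 genes of the endoglin, BMP and ALK1 complex were kept, 5 lower and 5 higher (median 0.12). Tgfbr3, the betaglycan co-receptor, differed by -2.52 (SE 0.70), near the 4 members in size, while Tgfbr2 differed by 1.60 (SE 0.67) and Bmpr2 by -1.42 (SE 0.70). Acvrl1, which encodes ALK1, and its ligands Gdf2 and Bmp10 were detected on 0 arrays. Around Procr, 5 of 12 protein C and thrombin genes were kept, 2 lower and 3 higher (median 0.03). F2r, the thrombin receptor PAR1, differed by -2.03 (SE 0.75) and Thbd, thrombomodulin, by 0.73 (SE 0.67).

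Around Cdh5, Esam and Jam3, 12 of 18 adherens and tight junction genes were kept, 10 lower and 2 higher (median -0.35). Cldn5, the endothelial claudin, differed by -1.40 (SE 0.58), Cdh2 by -1.24 (SE 0.83), Jup by -0.83 (SE 0.43) and Tjp1 by 0.64 (SE 0.83). Of 18 transcription factors shared by blood and endothelium, 11 were kept, 8 lower and 3 higher (median -0.74), led by Meis1 at -3.14 (SE 0.75) and Gata2 at -1.96 (SE 0.78). Lmo2 differed by -1.09 (SE 0.45) and Mef2c by -1.11 (SE 1.36). Erg, Elk3, Sox7 and Sox17 were detected on 0 arrays.

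Of 23 other surface or secreted molecules shared by HSCs and endothelium, 15 were kept, 12 lower and 3 higher in winner than loser cells (median -0.64). Vwf differed by -2.57 (SE 0.62), Selp, P-selectin, by -1.91 (SE 1.14), Cd34 by -1.84 (SE 0.55) and Kit by -1.29 (SE 0.68). The mean level of the 15 was 6.51 and 6.34 on the winner arrays and 6.65 to 7.29 on the others.

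Markers of cell types varied with the 4 genes. Some genes stand in more than 1 list: Meis1, Gata2 and Kit are also HSC identity genes, and Kdr, Flt1, Cldn5 and Pecam1 are also endothelial markers. Of 20 HSC identity genes, none of them a member, 14 were kept, and 14 of 14 lay lower in winner than in loser cells (median -2.05). Their mean level was 6.04 and 5.83 on the winner arrays and 6.68 to 8.39 on the others, and it correlated with the 4-gene mean at 0.98 over 12 arrays. Ndn, an imprinted gene of quiescent HSCs, was at 5.60 ± 0.13 in winner and 10.26 ± 0.14 in loser cells, and Cdkn1c, the cell cycle inhibitor p57, at 6.63 ± 0.25 and 10.02 ± 0.23.

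Endothelial markers were followed because the members are known from endothelium. Of 20 such markers, 13 were kept, and Plvap, Clec14a, Mmrn2, Nos3 and Tm4sf1 were detected on 0 arrays. The mean of the 13 was 5.53 and 5.62 on the winner arrays and 5.59 to 6.36 on the others, and its correlation with the 4-gene mean was 0.65 over 12 arrays and 0.26 over 10. Egfl7 differed by -2.46 (SE 0.58) and Adgrl4 by -2.31 (SE 0.59), both also expressed in HSCs, while Pecam1 differed by -0.52 (SE 0.47) and Kdr, the main VEGF receptor, by -0.49 (SE 0.54). Pecam1 was detected on 12 arrays and Kdr on 7. Flt1, given above with the partners of Tek, is also in this list and was higher in winner than loser cells. The list thus holds both directions, and the markers named here do not stand for it. The part of endothelial cells in the levels of the members was not tested.

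Granulocyte and monocyte markers were high where the 4 genes were low. Of 20, 17 were kept, and 17 of 17 lay higher in winner than loser cells (median 2.34). Their mean was 9.80 and 9.97 on the winner arrays and 5.50 to 9.85 on the others, and the correlation with the 4-gene mean was -0.76 over 12 arrays and -0.81 over 10. The nearest arrays were non-competing WT replicate 2 (9.85) and non-competing mp53 replicate 2 (9.77), where the 4 genes read 6.64 and 6.91, above both winner arrays. Of its genes, Ltf, lactoferrin, read 13.87 ± 0.26 in winner and 12.62 ± 0.98 in loser cells, and Camp, a granule peptide, 13.66 ± 0.26 and 12.24 ± 1.32.

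B lineage, erythroid and stromal markers were higher on both winner arrays than on all others. Part of this order may follow from the filter, which keeps a marker detected on both arrays of any group. Of the 10 kept B lineage markers, 9 to 10 were detected on winner arrays and 2 on loser arrays. Of the 5 kept stromal markers these numbers were 5 and 2 to 3. How many markers were kept through the winner group alone was not counted. The 10 kept B lineage markers averaged 7.21 and 5.93 on the winner arrays and 4.77 to 5.76 on the others. The 13 erythroid markers averaged 8.22 to 8.41 in winner cells against 5.22 to 7.83, and the 5 stromal markers 6.18 to 6.87 against 4.91 to 5.98. The stromal list held 14 genes, of which Col1a1, Col3a1, Nes and Lum were detected on 0 arrays. Winner and other arrays overlapped for the 7 T and NK markers, at 6.09 to 6.66 against 4.68 to 6.53, and for the 7 progenitor markers, at 7.69 to 8.31 against 5.88 to 7.97. The 7 megakaryocyte markers overlapped as well, at 5.95 to 7.57 against 6.59 to 8.54, and 5 of 7 were lower in winner than loser cells (median -1.50). Cd48, against which the cells were sorted, read 8.36 and 6.27 on the winner arrays and 4.64 to 6.92 on the others. Kit read 5.72 and 6.13 against 6.16 to 8.47. The part of other cells, or of fewer HSCs among the 200, in the levels of the 4 genes was not tested. In such bulk samples fewer cells of a type and less RNA per cell cannot be told apart.

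**Figure D4:**
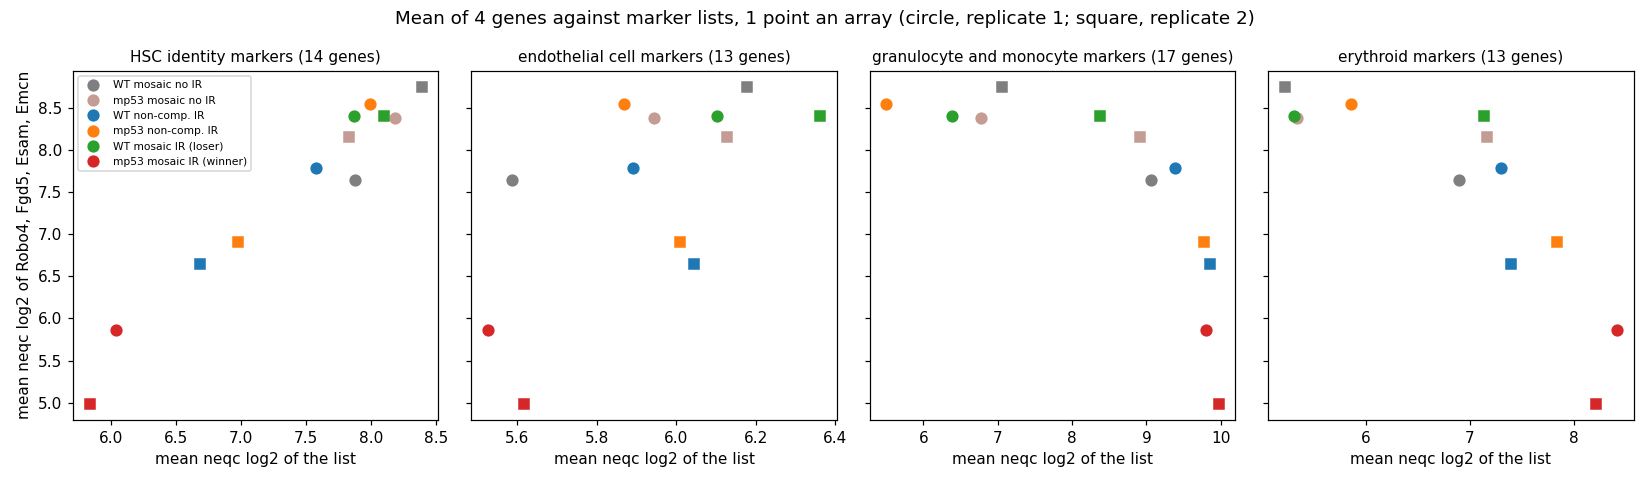
Mean of Robo4, Fgd5, Esam and Emcn (vertical axis, neqc log2) against the mean of 4 marker lists (horizontal axes, neqc log2), with 1 point for each of the 12 arrays, coloured by group, circles for replicate 1 and squares for replicate 2. The 4-gene mean runs with the HSC identity list (r 0.98) and less closely with the endothelial list (r 0.65), and opposite to the granulocyte and monocyte list (r -0.76) and the erythroid list (r -0.82).

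Array brightness was uneven. Winner replicate 2 was the brightest, with a 95th percentile of deposited intensity of 1079, and unirradiated mp53 replicate 1 the dimmest, with 82.3, and 8968 to 13489 of 46632 probes were detected. Replicates of a group correlated at 0.76 to 0.92. The Y-linked gene Eif2s3y was at background on 4 arrays (unirradiated WT and mp53 replicate 2, loser and non-competing mp53 replicate 1) and detected on the other 8. Replicates differed in it in 4 of the 6 groups, and so did winner and loser replicate 1. Slamf1, which encodes CD150, had a kept probe that was detected on 3 arrays. Ly6a and Trp53 had no probe with exactly 1 symbol and were not analysed here, so the mutant p53 was not checked.

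Under the 6 ways of scaling tried, Robo4 and Fgd5 lay below all other arrays on both winner arrays each time. Esam and Emcn did so in 5 of the 6. With arrays scaled to a common median, Esam overlapped by -0.30 and Emcn by -0.13.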

How the data were processed

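RNA of sorted HSCs was read on Illumina mouse bead arrays after 2 rounds of amplification, per the labels' protocols. The authors deposited 2 tables of raw probe intensity, 1 for each replicate number, each with a detection p-value per array. They also deposited a processed table, whose values lie on the intensity scale and were log2-transformed here. For the scanner software's settings and the authors' normalization, the entry is: not given in the sources used here. Arrays were matched to groups through their column names and titles, with 0 value columns unmatched.

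Intensity was background-corrected from the detection p-values, quantile-normalized over the 12 arrays with an offset of 16 and log2-transformed (neqc, limma 3.58.1, R 4.3.3). Of 46632 probes, 13512 were kept because some group had a detection p under 0.05 on each of its arrays, and 11 probes listed more than once were averaged. Of all probes, 29976 had 1 gene symbol, 10 several and 16646 none in the platform annotation. limma fitted 6 group means with 6 residual degrees of freedom, and p-values were Benjamini-Hochberg adjusted over all kept probes. The median SE of a difference was 0.49 log2 units. The number of arrays, 2 a group, limits the precision, and p-values measure only the spread between these arrays.

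The gene's kept probe with the highest mean stands for it. All probes of the 10 members are described, then of each pathway list up to 4 genes with the largest winner minus loser difference, the 5 genes most and 3 least like the mean member profile, and the 3 most like Fgd5, Robo4 and Esam. Marker genes, Ltf, Camp and Eif2s3y among them, were named after their values were seen. Members and lists were chosen with earlier results of these data known. The fit was tested on simulated data. Same-numbered replicates deviated together in 14 of 15 pairs of groups (correlation over 0.1, lowest 0.07, median 0.53, highest 0.64). This was not counted as pairing, and the fit behind the quoted SEs does not model it. Motifs were searched on both strands. Alternatives changed the background correction, scaling, filter, prior, blocks and arrays.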

Additional observations from a re-analysis of the deposited data

How the results depend on the processing

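The members' median difference, over the 6 measured genes, kept its sign for winner against loser, winner against non-competing mp53 and irradiation in mosaic mp53 under every alternative run. Changes of filter, prior or replicate block could not move these medians, since they leave the group differences as they are. For winner against loser (-2.75) it was -1.87 without background correction, -1.19 with median scaling, -1.65 with array brightness as a covariate, and -3.02 to -2.05 leaving out 1 array. For winner against non-competing mp53 (-2.0), leaving out 1 array gave -2.84 to -0.99. For irradiation in mosaic mp53 (-2.54) it was -1.78 without background correction, -1.13 with median scaling, -2.34 with quantile normalization within each table, -2.01 in the authors' processed table, -1.50 with brightness, -2.35 without the 2 dimmest arrays, -2.28 with quantiles on the log2 scale (chosen after seeing the data), and -2.92 to -1.85 leaving out 1 array. The competition by genotype term (-3.08) was -2.15, -1.88, -2.80, -2.37 and -2.38 under the first 5 of these, -2.76 on the log2 scale, and -3.75 to -2.22 leaving out 1 array. The irradiation by genotype term (-2.82) was -1.96 without background correction, 0.42 with median scaling, -2.11 in the processed table, -1.27 with brightness, and -3.35 to -2.26 leaving out 1 array. Median scaling also gave 0.18 for loser against non-competing WT (0.49 to 1.61 leaving out 1 array), -1.25 for irradiation in mosaic WT (-0.56 to 0.50), -0.98 for unirradiated mp53 against WT (-0.52 to 0.31) and 0.54 for non-competing against unirradiated mp53 (-1.40 to 0.48). Leaving out 1 array gave -0.22 to 1.44 for non-competing mp53 against WT and -1.34 to -0.33 for non-competing against unirradiated WT. The cause was not tested.

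Probes called stayed at 0 in most settings. For winner against loser 1 was called with median scaling, 1 without the filter, 3 with a trended and robust prior and 0 to 3 leaving out 1 array. For winner against non-competing mp53 it was 1 with median scaling and 0 to 3 leaving out 1 array, and for the competition by genotype term 0 to 3. Without unirradiated mp53 replicate 2 the highest counts were 1459 for irradiation in mosaic mp53, 1594 for the irradiation by genotype term, 163 for non-competing against unirradiated mp53 and 185 for unirradiated mp53 against WT, each from 0. The group then holds 1 array, which is assumed to vary like the others. No member probe was called in any of 25 settings. Most settings called 0 probes and the member probes are few, so nothing about the members is read from this. With the replicate number as a block (replicate block), 0 probes were called in all 11 comparisons. The winner minus loser median of -2.75 cannot change under this block, since each group holds 1 array of each replicate number.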
